A study of Mus musculus with 41 samples.

Results

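The SOX family was examined here through 10 genes, *Sox4*, *Sox5*, *Sox6*, *Sox7*, *Sox8*, *Sox9*, *Sox11*, *Sox13*, *Sox18* and *Sox21*, out of the 21911 protein-coding genes of the annotation. Each gene was taken with its body and 50 kb to each side (mm10), and every peak overlapping that stretch was assigned to it. CUT&RUN (CNR), which sequences the short DNA fragments that an antibody-tethered nuclease releases around a chromatin protein, had been done for SOX9 and for MLL3/4 in epidermal stem cells (EpdSCs), and for MLL3/4 and a MYC tag in cultured keratinocytes.

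The EpdSCs were sorted from the back skin of male CD1 mice as CD49f-high, Ly6A-high cells without CD34, CD31, CD45, CD117 and CD140a, with the genotype K14rtTA; TRE-myc-*Sox9*, in which doxycycline (DOX) induces a MYC-tagged *Sox9* transgene through the keratin 14 promoter. SOX9 CNR covered D0, the time before DOX at 21 postnatal days, and weeks (W) 1, 2, 6 and 12 of DOX, while MLL3/4 CNR covered D0, W1 and W2. Mice were 28, 35 and 63 postnatal days old in the first 3 groups after DOX, and W12 skin had been grafted as newborn skin onto immunocompromised hosts, so age and grafting cannot be told apart from time on DOX. The cultured keratinocytes, taken from back skin of the same strain, carried K14rtTA and an inducible MYC-tagged wild-type SOX9 (WT-SOX9), a mutant lacking the transactivation domain (dTA-SOX9) or a mutant lacking the HMG domain that binds DNA (dHMG-SOX9). They received 1 µg per ml DOX, and the control in culture was the WT-SOX9 line without DOX.

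SOX proteins bind the minor groove of DNA through an HMG box and bend it, and they are sorted into groups by the sequence of that box. SOX9 belongs to group E with SOX8 and SOX10. It is best known for cartilage and hair follicle fate, and in cartilage it works with the group D proteins SOX5 and SOX6, which carry no transactivation domain of their own. Group C (SOX4, SOX11) acts in progenitors of many tissues, group F (SOX7, SOX18) in endothelium, and SOX21 of group B2 in hair and neural lineages. MLL3 and MLL4 are histone methyltransferases that mark enhancers. The genes below therefore include possible partners and relatives of the induced factor, but the lists say where proteins sat, not how strongly any gene was transcribed.

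Each of the 16 groups was represented by 1 peak list, called by the authors on 2 pooled samples, so no spread between replicates and no test could be had. Shares are given with 95% Wilson confidence intervals (CI) and fragments with exact Poisson intervals, which cover counting error only. From the steps between peak heights, the SOX9 lists were estimated to rest on 13.1 M to 32.5 M fragments and the MYC-tag lists on 4.04 M to 6.09 M. Their peak heights are in RPKM, which scales fragments by length and sequencing depth, and every peak in them exceeded 1800 RPKM. The MLL3/4 heights are raw coverage of unknown depth. They are printed side by side for single sites, but a rise or fall between lists cannot be read from them. At starts of EpdSC marker genes (*Krt5*, *Krt14*, *Trp63*, *Itga6*, *Col17a1*, *Ly6a*), MLL3/4 peaks stood at 5 of 6 genes at D0, W1 and W2, with *Ly6a* at 0, and at 0 of 5 genes of cells that the sort removes (*Pecam1*, *Ptprc*, *Pdgfra*, *Kit*, *Cd34*). In culture the EpdSC count was 3 of 6 in the no DOX list, 1 of 6 for WT-SOX9, 4 of 6 for dTA-SOX9 and 3 of 6 for dHMG-SOX9, and *Pecam1* had an MLL3/4 peak in the first 2 of these lists. The *Pecam1* start, of a gene of endothelium, also carried a SOX9 peak at W1 (4034 RPKM), W2 (7105), W6 (5121) and W12 (4550), and its part in the counts at the endothelial genes *Sox7* and *Sox18* was not tested.

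The sequences that the results turn on are stretches reaching 50 bp to each side of the maximum of SOX9 peaks at 4 of the sites that recurred most, on the plus strand of mm10 from RefSeq. Capitals mark a SOX word on either strand, which is CCATTGT or CCTTTGT and also GCATTGT or GCTTTGT. Where there was none they mark a word of AP-1, the factors made of JUN and FOS proteins, TGACTCA or its reverse complement TGAGTCA.
Site 449.97 kb downstream of Sox9 (chr11:113232142-113232242): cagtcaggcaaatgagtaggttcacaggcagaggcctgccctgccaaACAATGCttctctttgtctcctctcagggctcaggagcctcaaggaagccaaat
Site in a Sox6 intron (chr7:115669325-115669425): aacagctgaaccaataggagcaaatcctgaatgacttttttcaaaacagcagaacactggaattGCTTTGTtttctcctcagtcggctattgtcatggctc
Site in a Sox5 intron (chr6:143858651-143858751): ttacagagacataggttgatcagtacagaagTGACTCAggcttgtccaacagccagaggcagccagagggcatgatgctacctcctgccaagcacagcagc
Site downstream of Sox21 (chr14:118220424-118220524): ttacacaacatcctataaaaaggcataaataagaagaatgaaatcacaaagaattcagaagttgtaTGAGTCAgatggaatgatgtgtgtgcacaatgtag
The first pair holds 1 SOX word each, the second pair none but 1 AP-1 word each. These 4 were printed because they hold a word. Of the 7 named sites in at least 3 lists, the other 3, those 477.7 kb and 778.1 kb downstream of *Sox9* and that 35.1 kb downstream of *Sox7*, hold neither word within 50 bp of the maximum.

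SOX9 peaks were found at 7 of the 10 genes after induction and at 0 of them at D0. The genes were *Sox8*, *Sox4*, *Sox5*, *Sox6*, *Sox13*, *Sox7* and *Sox21*. Of all protein-coding genes, 61.1% met the same condition of 0 peaks at D0 and a peak at W1, W2, W6 or W12, so the family count lay near the background. *Sox9* itself, *Sox11* and *Sox18* had 0 SOX9 peaks in all 5 lists. In single lists, 5 genes held a peak at W1 (52.4% of all genes did) and 6 at W2 (57.5%). The W6 list touched 7 of them (58.7%) and the W12 list 5 (39.8%), against 6.03% of all genes in the D0 list. Peaks at the 10 loci numbered 0 at D0 and 26, 24, 33 and 19 at W1, W2, W6 and W12. The D0 list held 792 peaks against 9745 to 20579 later, and among the 792 peaks of highest total signal the loci held 1 peak of the W1 list, 0 of W2, 0 of W6 and 4 of W12.

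**Figure D1:**
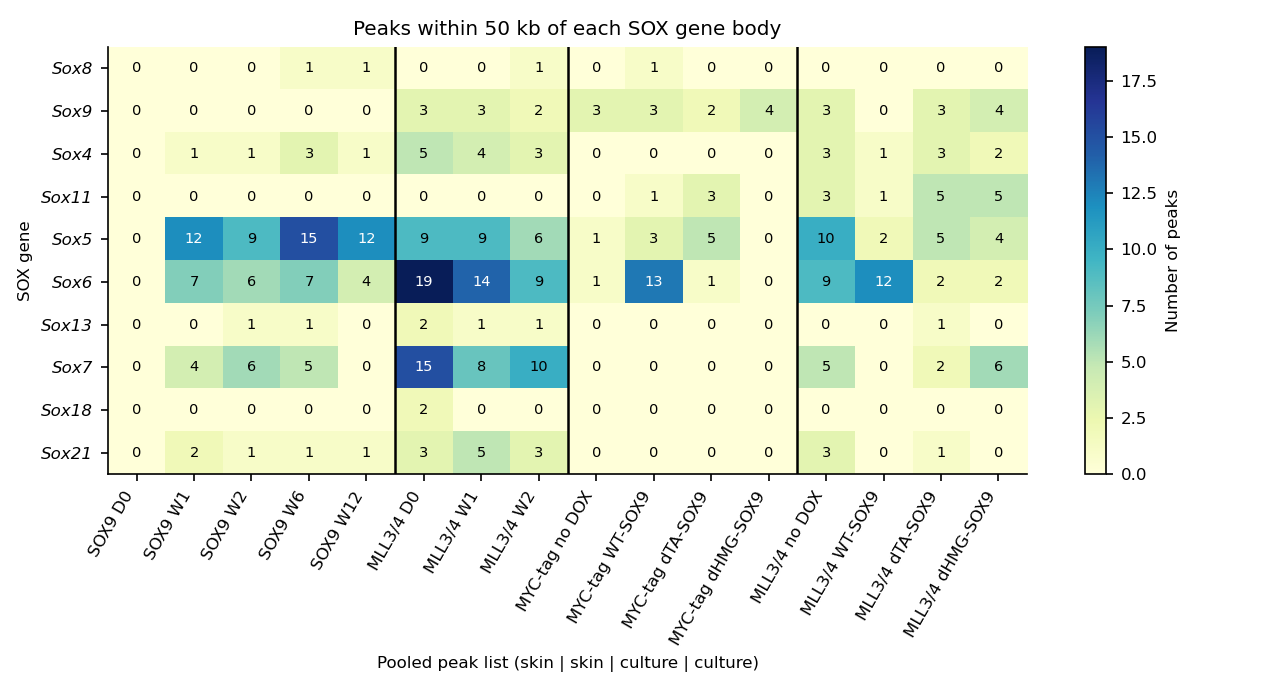
Number of peaks within 50 kb of each SOX gene body (rows, ordered by SOX group) in each of the 16 pooled lists (columns; SOX9 and MLL3/4 in skin, then MYC-tag and MLL3/4 in culture), with the count written in each cell. *Sox5* and *Sox6* hold most SOX9 peaks, and only *Sox6* holds more MLL3/4 peaks with WT-SOX9 than without DOX.

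The peaks were spread unevenly. *Sox5* and *Sox6* are the longest genes of the 10, 953.6 kb and 567.9 kb, and together held 19, 15, 22 and 16 of the SOX9 peaks at W1, W2, W6 and W12. Per length, *Sox5* carried 1.14 peaks per 100 kb at W1, a density that 30.3% of all genes reached, and the same 1.14 at W12, which 14.7% reached. *Sox6* carried 1.05 per 100 kb at W1, reached by 30.8% of genes, and 0.599 at W12, reached by 35.1%. *Sox7* had the densest SOX9 peaks, 5.60 per 100 kb at W2, a density reached by 3.73% of all genes. Of its 6 peaks at W2, however, 2 had *Sox7* as the nearest gene by transcription start, and its stretch also holds *Pinx1*, *4930578I06Rik* and *Rp1l1*.

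In group E, *Sox8* had 1 SOX9 peak, 6.83 kb upstream of its start, at W6 (2519 RPKM, 60 fragments, 95% CI 45.8 to 77.2) and at W12 (2114 RPKM, 46 fragments, 95% CI 33.7 to 61.4). The nearest start there was that of *Lmf1*, 1566 bp away. The MYC-tag list of WT-SOX9 held a peak at the same place at 2955 RPKM with 18 fragments (95% CI 10.7 to 28.4), and the dTA-SOX9 and dHMG-SOX9 lists held 0 peaks at the *Sox8* locus. MLL3/4 showed 1 peak at the locus, at W2, elsewhere in the stretch.

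In group C, *Sox4* had 1, 1, 3 and 1 SOX9 peaks from W1 to W12. Its site 35.6 kb downstream was seen at W6 (3442 RPKM, 82 fragments) and W12 (2160 RPKM, 47 fragments), and MLL3/4 was found there at W1 and W2 with a coverage of 5 each and not at D0. Its own promoter carried a SOX9 peak at W1 (1844 RPKM) and at W6 (2477 RPKM). An MLL3/4 peak stood at that promoter at D0 with a coverage of 11, was not found at W1, and 5 was the highest coverage there at W2. In culture it stood at 19 without DOX, and 0 MLL3/4 peaks lay at the *Sox4* start with WT-SOX9, dTA-SOX9 or dHMG-SOX9. *Sox11* had 0 peaks of SOX9 or MLL3/4 in skin. In culture it had 3 MLL3/4 peaks without DOX, 1 after WT-SOX9 induction and 5 in each of the mutant lists. The MYC-tag list of dTA-SOX9 held 3 peaks upstream of *Sox11*, the highest 37.5 kb away at 7384 RPKM (36 fragments, 95% CI 25.2 to 49.8), where MLL3/4 stood without DOX (coverage 27). WT-SOX9 gave a single MYC-tag peak instead, 25.7 kb downstream at 2955 RPKM (18 fragments, 95% CI 10.7 to 28.4), with a new MLL3/4 peak of coverage 10. The *Sox11* start carried MLL3/4 with dTA-SOX9 (coverage 13) and dHMG-SOX9 (coverage 7), and not in the other 2 lists of cultured cells.

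In group D, *Sox5* held 18 sites, a site being a set of overlapping SOX9 peaks of W1, W2, W6 and W12. Of these, 6 were seen in all 4 lists, 3 in 3 lists, 5 in 2 and 4 in 1. The site that ranked first by recurrence and then total signal at W2, 923.3 kb into the gene from its outermost start, gave 3515, 3056, 2729 and 2068 RPKM from W1 to W12 (61, 40, 65 and 45 fragments). The Poisson interval at W1, 2689 to 4515 RPKM, overlapped those of W2 (2183 to 4161 RPKM), W6 (2106 to 3478 RPKM) and, at its edge, W12 (1508.5 to 2767 RPKM). MLL3/4 covered this site at D0 (coverage 10), W1 (15) and W2 (8). Another *Sox5* site, 761.7 kb into the gene, went from 5762 RPKM at W1 and 3056 at W2 to 10998 at W6 and 7032 at W12. MLL3/4 was found there at W1 (coverage 5) and not at D0 or W2. The site 936.0 kb into the gene stood at 6454, 3667, 6800 and 6664 RPKM, and those 742.6 kb (4034, 5883, 6674 and 4458 RPKM) and 424.2 kb (2017, 2292, 5835 and 6021 RPKM) into the gene lay on none of the 3 MLL3/4 lists of the skin. These 3 sites were all lowest at W1 or W2, and the site nearest the outermost start among the 6 in all 4 lists, 8.72 kb into the gene, stood at 2132, 2368, 3694 and 2298 RPKM. Of the 18 *Sox5* sites, 5 lay on D0 MLL3/4 peaks, 4 lay on MLL3/4 peaks at W1 or W2 only, and 9 on none of the 3 lists.

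*Sox6* held 8 sites, 4 of them in all 4 lists. The site 369.4 kb into the gene, whose sequence with the word GCTTTGT is given above, gave 2996 RPKM at W1 (52 fragments, 95% CI 38.8 to 68.2) and 6723 RPKM in the W2 list (88 fragments, 95% CI 70.6 to 108). The W6 list reached 7556 RPKM (180 fragments, 95% CI 155 to 208), and the W12 list 1976 RPKM (43 fragments, 95% CI 31.1 to 57.9). The site was chosen by its total signal at W2, so its W2 level is set in part by that choice and is given as a description. On the RPKM scale the W6 interval (6492 to 8744) lay above those of W1 (2238 to 3929) and W12 (1430 to 2662), while the other 3 sites in all 4 lists were lower at W2 than at W1. The site 423.0 kb into the gene was highest at W1, 12043 RPKM, and then stood at 9855, 7010 and 3033. MLL3/4 was not found there at D0 and reached a coverage of 11 at W1 and 8 at W2. The other sites in all 4 lists, 556.8 kb and 172.5 kb into the gene, stood at 3573, 2674, 4408 and 3769 RPKM and at 4437, 3973, 3232 and 1976 RPKM. Of the 8 *Sox6* sites, 2 lay on D0 MLL3/4 peaks and 3 on MLL3/4 peaks of W1 or W2 only. *Sox13* had a single site, seen at W2 (3667 RPKM) and W6 (2015 RPKM), at the promoter of the neighbouring *Etnk2*, 95 bp from its start. MLL3/4 covered it at D0, W1 and W2.

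In group F, *Sox7* had 4, 6 and 5 SOX9 peaks at W1, W2 and W6 and 0 at W12. None of its 9 sites was in all 4 lists. The site ranked first, 35.1 kb downstream in an intron outside *Sox7*, nearest to the start of *4930578I06Rik*, gave 2996, 4889 and 3652 RPKM at W1, W2 and W6 and lay on MLL3/4 peaks at D0 (coverage 15), W1 (14) and W2 (10). In all, 7 of the 9 *Sox7* sites lay on D0 MLL3/4 peaks, against 5 of 18 at *Sox5* and 2 of 8 at *Sox6*. *Sox18* had 2 MLL3/4 peaks at D0 and 0 peaks in the other 15 lists, in a stretch shared with 6 further protein-coding genes. In group B2, the *Sox21* site 16.6 kb downstream was in all 4 SOX9 lists, at 3342, 2139, 2519 and 3355 RPKM, and MLL3/4 was found there at W1 (coverage 7) but not at D0 or W2.

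**Figure D2:**
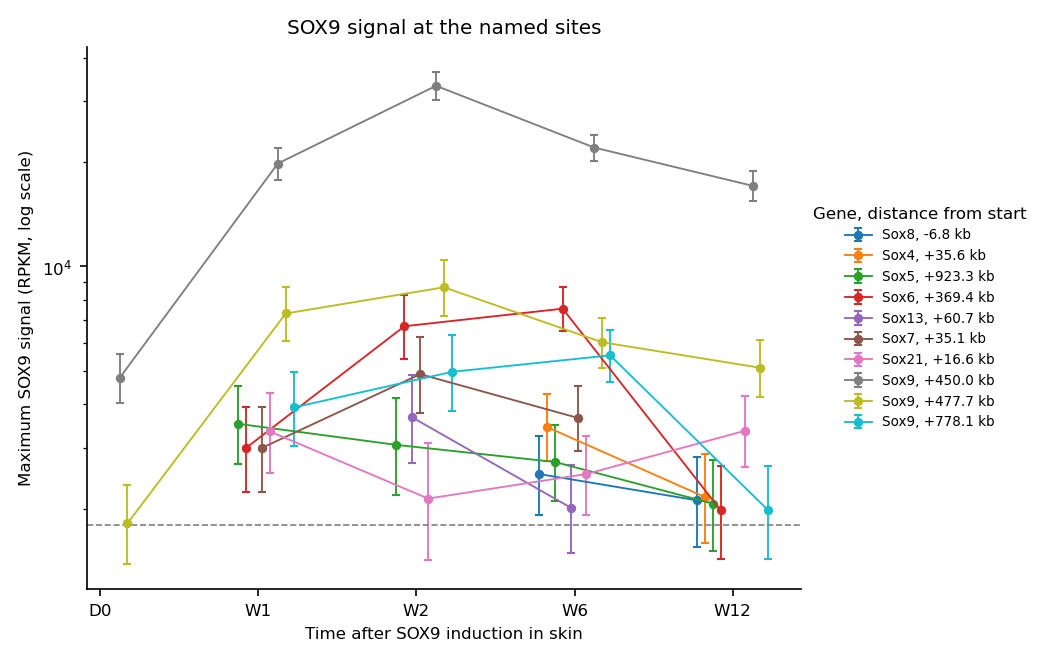
Maximum SOX9 signal in RPKM (log scale) at the named site of each gene and at 3 sites in the *Sox9* region, at D0, W1, W2, W6 and W12; bars are 95% Poisson intervals of the fragments and the dashed line is the 1800 RPKM limit of the lists, under which no point is drawn. The site 449.97 kb downstream of *Sox9* stands above all others at every time, and it and the site 477.7 kb downstream are the only ones drawn at D0.

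Over all 43 sites at the 10 loci, 11 were in all 4 lists and 14 in 1 list. Of all 28549 sites in the genome, 17.9% were in all 4 and 36.0% in 1. With each list cut to 9745 peaks, 5 of 33 sites at the loci were in all 4 (15.2%, 95% CI 6.65 to 30.9), against 19.9% of all sites, so the share at the loci lay above that of the genome in whole lists (25.6%, 95% CI 14.9 to 40.2) and below it in cut ones, with the genome value inside both intervals. D0 MLL3/4 peaks lay under 18 of the 43 sites, against 53.7% of all sites. Peak by peak, 46.2% (95% CI 28.8 to 64.5, n = 26) of the W1 peaks at the loci lay on D0 MLL3/4 peaks, against 67.7% of the whole list. At W2 the share was 50% (95% CI 31.4 to 68.6, n = 24) against 66.3%, at W6 36.4% (95% CI 22.2 to 53.4, n = 33) against 52.8%, and at W12 15.8% (95% CI 5.52 to 37.6, n = 19) against 40.7%. The value over the whole list lay above the interval at W1 and W12 and within it at W2 and W6 (66.3% against an upper bound of 68.6%, and 52.8% against 53.4%). Members share the same lists, and most of these peaks come from *Sox5* and *Sox6*, so the peaks are not independent of each other. Without these 2 genes the shares were 71.4% at W1 (95% CI 35.9 to 91.8, n = 7), 77.8% at W2 (95% CI 45.3 to 93.7, n = 9) and 54.5% at W6 (95% CI 28.01 to 78.7, n = 11), each above its whole list, and 0 of 3 at W12. The lower shares at W1, W2 and W6 were thus not seen without *Sox5* and *Sox6*. The other genes differed, with 7 of 9 sites on D0 MLL3/4 peaks at *Sox7*, 3 of 4 at *Sox4*, 1 of 1 at *Sox13*, 0 of 2 at *Sox21* and 0 of 1 at *Sox8*.

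The SOX word stood within 50 bp of the maximum in 26.9% (95% CI 13.7 to 46.1) of the W1 peaks at the loci and 29.2% (95% CI 14.9 to 49.2) of the W2 peaks. Of the W6 peaks 27.3% held it (95% CI 15.1 to 44.2), and of the W12 peaks 47.4% (95% CI 27.3 to 68.3). Over the whole lists the shares were 18.5%, 15.5%, 18.8% and 24.8%. The W12 interval alone excluded the value of its whole list, and with 19 peaks it rests on 9 of them. With 100 bp to each side, the shares from W1 to W12 were 50%, 41.7%, 39.4% and 52.6%, against 26.5%, 23.3%, 27.1% and 33.5% of the whole lists. The W12 interval (31.7 to 72.7) then held its whole-list value, and those of W1 (32.1 to 67.9) and W2 (24.5 to 61.2) lay above theirs. Most of the words were at *Sox5* and *Sox6*. Within 50 bp, 31.6% of their peaks held the SOX word at W1 (95% CI 15.4 to 54.0, n = 19), 46.7% at W2 (95% CI 24.8 to 69.9, n = 15), 36.4% at W6 (95% CI 19.7 to 57.0, n = 22) and 50% at W12 (95% CI 27.9996 to 72.0, n = 16), and the last 3 intervals lay above the whole lists. At the other loci 1 of 7, 0 of 9, 1 of 11 and 1 of 3 peaks held it. The AP-1 word stood in 19.2%, 25%, 15.2% and 26.3% of the same peaks, with whole-list values of 16.2%, 15.7%, 23.5% and 29.9% inside each interval.

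**Figure D3:**
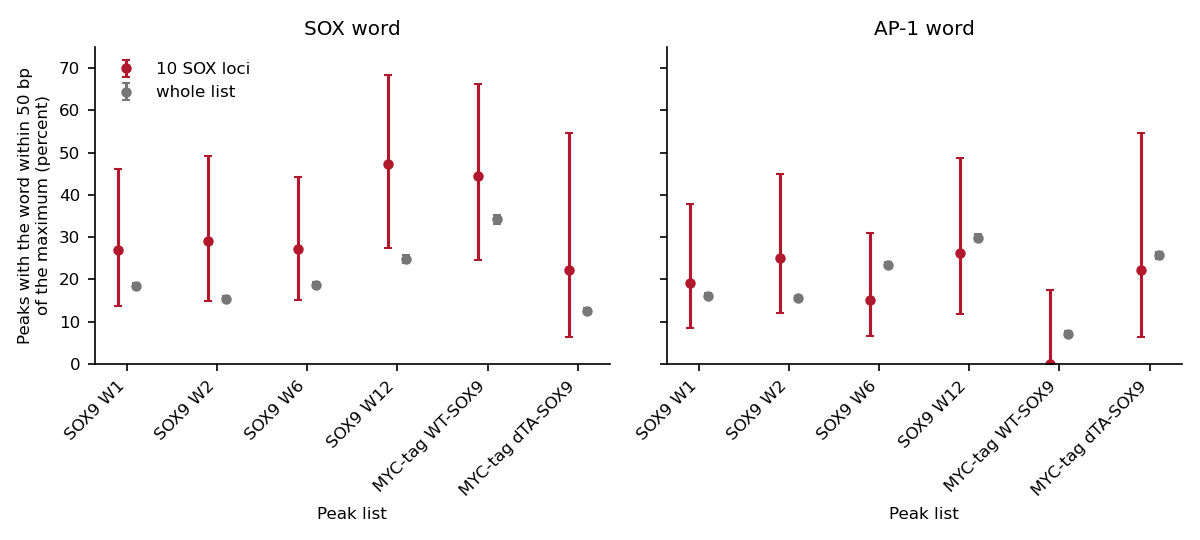
Share of peaks with a SOX word (left) or an AP-1 word (right) within 50 bp of the maximum, in percent, for peaks at the 10 SOX loci without the *Sox9* gene body (red) and for the whole list (grey), with 95% Wilson intervals, in 6 lists (SOX9 at W1, W2, W6 and W12, and the MYC tag with WT-SOX9 and with dTA-SOX9). The intervals at the loci are wide, and the SOX word at W12 is the one value whose interval lies above its whole list at this window width.

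The *Sox9* gene had 0 SOX9 peaks within 50 kb, but the 1 Mb to each side, which holds no other coding gene for 462.6 kb downstream and none upstream, was dense with them. The D0 list held 2 peaks there, and the lists from W1 to W12 held 23, 39, 48 and 19, or 1.15, 1.94, 2.39 and 0.947 per 100 kb in the 4 lists after DOX. The genome as a whole held 0.574, 0.685, 0.755 and 0.358 per 100 kb in those lists. Among the 792 peaks of highest total signal of each list, the number in D0, the stretch held 2 at D0 and 2, 3, 3 and 2 from W1 to W12, so at equal size the lists did not separate D0 from the later times. Between 380 and 520 kb downstream, bounds set after the peaks were seen, lay both D0 peaks and 15, 19, 16 and 8 of the later ones, in order of time.

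The highest of these, 449.97 kb downstream and intergenic, was the SOX9 peak of rank 84 by total signal among 15651 in the W1 list, 27 among 18657 in W2, 60 among 20579 in W6 and 38 among 9745 in W12. Its maximum was 4765 RPKM before DOX (155 fragments, 95% CI 132 to 181). After 1 week it was 19822.5 RPKM (344 fragments, 95% CI 309 to 382) and after 2 weeks 33233 RPKM (435 fragments, 95% CI 395 to 478). The W6 list gave 22038 RPKM (525 fragments, 95% CI 481 to 572) and the grafted skin 17096.5 RPKM (372 fragments, 95% CI 335 to 412). The site was named for recurrence after DOX and its total signal at W2, so the order of D0 and the later lists is a description. A SOX9 peak stood there before DOX, and in RPKM the intervals of all 4 later lists, the lowest from 15403 to 18925, lay above that of D0, from 4044 to 5577. MLL3/4 was not found there at D0 and reached a coverage of 12 at W1 and 13 at W2. In culture, WT-SOX9 gave a MYC-tag peak of 10014 RPKM (61 fragments, 95% CI 46.7 to 78.4) at the site, and the no DOX list and both mutant lists held 0 peaks there. MLL3/4 stood at the site in culture without DOX (coverage 8), with WT-SOX9 (9) and with dHMG-SOX9 (13) and was not found with dTA-SOX9, so there it was present before induction. The site 477.7 kb downstream, in an intron of *Slc39a11*, also had a D0 peak, 1814 RPKM, and stood at 7318, 8709, 6045 and 5101 RPKM from W1 to W12. The next site in order, 778.1 kb downstream, gave 3918, 4966, 5541 and 1976 RPKM and lay on MLL3/4 peaks at D0, W1 and W2. In all, 10 of the 61 sites of the region were in all 4 lists. Upstream of *Sox9* they lay 716.0 kb away (3457, 4889, 8605 and 5561 RPKM), 641.3 kb away (2651, 5042, 3694 and 1884 RPKM) and 529.0 kb away (4091, 3973, 3568 and 2803 RPKM). Downstream they also lay at 432.8, 443.8, 495.2 and 503.0 kb. The site 503.0 kb downstream (5647, 8480, 8144 and 3079 RPKM) had no MLL3/4 peak at D0 and coverages of 11 and 9 at W1 and W2.

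The SOX word stood near the maximum in 17.4% (95% CI 6.98 to 37.1), 15.4% (95% CI 7.25 to 29.7), 18.75% (95% CI 10.2 to 31.9) and 15.8% (95% CI 5.52 to 37.6) of the SOX9 peaks of the region from W1 to W12, and each interval held the value of its whole list. In culture it stood in 53.8% (95% CI 29.1 to 76.8) of the 13 WT-SOX9 MYC-tag peaks off the gene and in 4.55% (95% CI 0.807 to 21.8) of the 22 of dTA-SOX9, against 34.2% and 12.6% of the whole lists.

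**Figure D4:**
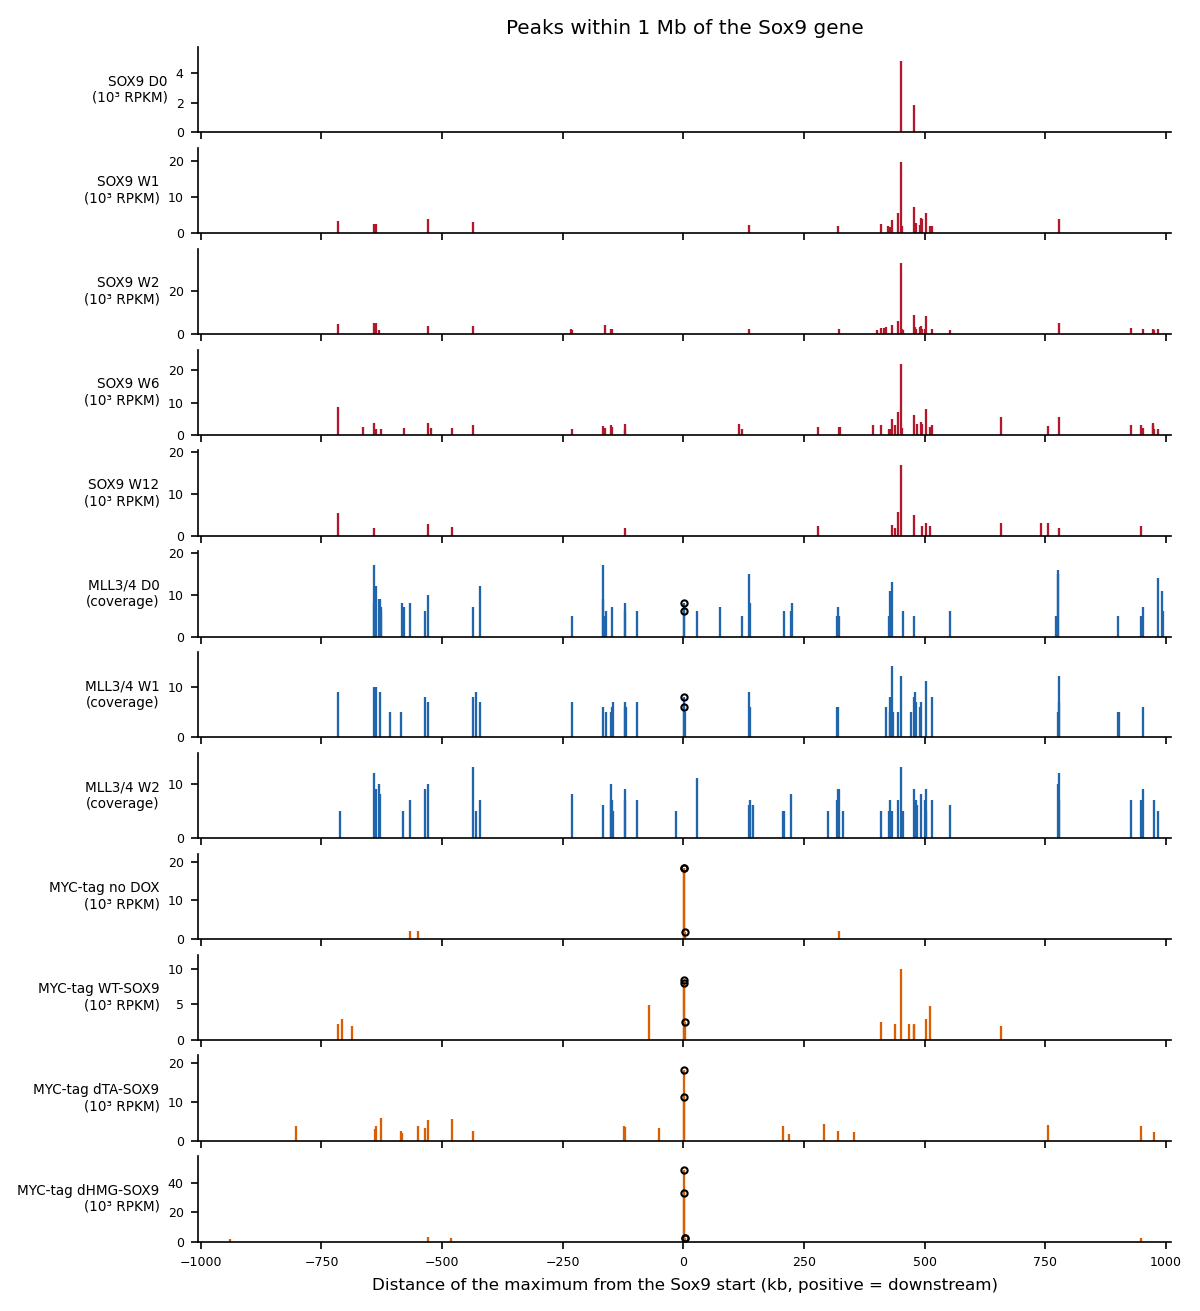
Peaks within 1 Mb of *Sox9* in 12 lists, by distance of the maximum from the *Sox9* start in kb; heights are in 1000 RPKM for SOX9 and MYC-tag lists and in raw coverage for MLL3/4, with a separate scale for each list. Open circles mark peaks on *Sox9* coding exons, which are absent from the SOX9 lists, and the tallest SOX9 line lies 449.97 kb downstream.

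MLL3/4 lists of the skin held 51, 49 and 62 peaks in the same 2 Mb before DOX and after 1 and 2 weeks. Between 380 and 520 kb downstream, MLL3/4 peaks numbered 5, 15 and 18. In culture they numbered 4 there without DOX, and 6, 4 and 6 in the WT-SOX9, dTA-SOX9 and dHMG-SOX9 lists. Of the 61 SOX9 sites in the region, 24 lay on D0 MLL3/4 peaks, 18 on MLL3/4 peaks of W1 or W2 only and 19 on none. Over the genome the corresponding shares were 53.7%, 20.7% and 25.6%. MYC-tag peaks off the *Sox9* gene numbered 13 for WT-SOX9 and 22 for dTA-SOX9, and 0 of the 13 (95% CI up to 22.8%) overlapped a dTA-SOX9 peak, against 19.2% of the whole list, which lies inside that interval. Of the WT-SOX9 peaks, 15.4% (95% CI 4.33 to 42.2) lay on MLL3/4 peaks of cells without DOX, against 86.4% (95% CI 66.7 to 95.3) of the dTA-SOX9 peaks. Over the whole lists these shares were 27.7% and 68.3%.

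Peaks on the coding exons of *Sox9* are described apart, since the transgenes hold that coding sequence and their DNA may supply the fragments. A peak was counted as on a coding exon where it overlapped coding bases. There were 26 such peaks in 9 of the 16 lists, and 97.0% of their bases lay inside the 1521 bp of coding sequence. The peak on the first coding exon began 0 bp and ended 0 bp from the exon's coding borders in the MYC-tag list of WT-SOX9, and 2 bp before and 1 bp after in the list without DOX. Its height was 18419 RPKM without DOX (91 fragments) and 8044 RPKM with WT-SOX9 (49 fragments). The mutants gave 18255 RPKM (dTA-SOX9, 89 fragments) and 48571 RPKM (dHMG-SOX9, 196 fragments). The exon peak was therefore present without induction and highest with the protein that lacks its DNA-binding domain. MLL3/4 lists held exon peaks at D0 and W1 in skin and, in culture, without DOX and in both mutant lists. The W2 list and the WT-SOX9 list held none. The source of these fragments was not tested, and the exon peaks were left out of the counts of words. They are included in the counts of peaks and genes and in the overlap shares at the 10 loci that follow. For whole lists, totals without them are given beside these values. Such values in lists cut to equal size or taken without *Sox5* and *Sox6* still include them.

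In skin, the MLL3/4 lists of D0, W1 and W2 held 58, 44 and 35 peaks at the 10 loci, or 56, 42 and 35 off the *Sox9* coding exons. They were at 8 of 10 genes at D0 (71.7% of all genes had one), 7 at W1 (67.9%) and 8 at W2 (65%). At W1, *Sox4*, *Sox6*, *Sox13*, *Sox7* and *Sox18*, 5 genes, had fewer peaks than at D0 (48.2% of all genes did), and *Sox21* had more, 5 against 3 (16.8% of all genes). At W2, these 5, *Sox9* and *Sox5*, 7 genes in all, had fewer (49%) and *Sox8* had more (14%). Off its coding sequence *Sox9* had 1 peak at D0, 1 at W1 and 2 at W2. The peak at D0, 29.1 kb downstream, was not found at W1. The peak at W1, 3.49 kb past the start in the non-coding part of an exon, was not found at D0. By these counts 6 genes had fewer at W2 and 2 had more. Of the D0 peaks, 34.5% (95% CI 23.6 to 47.3) overlapped a W1 peak, against 51.5% of the whole list, and 37.9% (95% CI 26.6 to 50.8) overlapped a W2 peak, against 51.3%. Both whole-list values lay above the intervals. Off the *Sox9* coding exons the shares were 32.1% (95% CI 21.4 to 45.2) and 39.3% (95% CI 27.6 to 52.4), and the second interval then held its whole-list value. At an equal list size of 29281 peaks, with the exon peaks counted, the shares were 37.8% (95% CI 25.1 to 52.4) and 48.9% (95% CI 34.96 to 62.995), against 58.3% and 59.2%, and again only the first interval lay below. Without *Sox5* and *Sox6* the share at W1 was 43.3% (95% CI 27.4 to 60.8), which holds the whole-list value.

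Of the 38 D0 peaks without a W1 peak, 15 were at *Sox6*, the most of any of the 10 genes. Of its 19 D0 peaks, 4 overlapped a W1 peak and 3 a W2 peak, and of its 14 W1 peaks 10 had no D0 peak beneath them. The last count is given without the share of the whole W1 list, so it is not a result about *Sox6*. The strongest lost at W1, by total signal, lay 119.5 kb into the gene with a coverage of 11, and the strongest gained, 423.0 kb into the gene, was the SOX9 site that stood at 12043 RPKM at W1. *Sox7* had 15, 8 and 10 MLL3/4 peaks, of which 7 of the 15 at D0 overlapped W1 peaks. Its 14.0 peaks per 100 kb at D0 were reached by 0.926% of all genes, but 3 of the 15 had *Sox7* as the nearest gene and 0 lay in its body. *Sox4* had 5, 4 and 3, *Sox5* 9, 9 and 6, *Sox21* 3, 5 and 3, *Sox13* 2, 1 and 1, and *Sox9* 3, 3 and 2, where 2 of the 3 at D0 and 2 of the 3 at W1 were on coding exons. In MLL3/4 lists cut to 29281 peaks, with ties at the limit kept, *Sox6* had 11, 12 and 9, *Sox7* 15, 6 and 10, *Sox4* 3, 3 and 3 and *Sox5* 6, 8 and 6. The lower counts of *Sox6* and *Sox4* at W1 and of *Sox4* and *Sox5* at W2 were thus not seen there, and the 10 loci held 45, 37 and 35 peaks.

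In culture, the WT-SOX9 MYC-tag list held more peaks at *Sox6* than at any of the other 9 genes. *Sox6* had 13 peaks with WT-SOX9 and 1 without DOX, and the mutant lists held 1 (dTA-SOX9) and 0 (dHMG-SOX9). Its 1.95 peaks per 100 kb with WT-SOX9 were reached by 3.0% of all genes. In the order no DOX, WT-SOX9, dTA-SOX9 and dHMG-SOX9, *Sox5* had 1, 3, 5 and 0 MYC-tag peaks, *Sox11* had 0, 1, 3 and 0 and *Sox8* 0, 1, 0 and 0. More peaks with WT-SOX9 than without DOX were found at these 4 genes, against 24.7% of all genes. The dTA-SOX9 list held more peaks than the WT-SOX9 list at *Sox11* and *Sox5* (29.6% of all genes) and fewer at *Sox9*, *Sox8* and *Sox6* (16%). In MYC-tag lists cut to 2242 peaks, *Sox6* had 7 peaks with WT-SOX9 and 0 with dTA-SOX9, *Sox5* had 3 and 2, *Sox11* 0 and 1 and *Sox8* 0 in both, so the order at *Sox5* turned. *Sox4*, *Sox13*, *Sox7*, *Sox18* and *Sox21* had 0 MYC-tag peaks in all 4 lists. At least 1 peak stood at 5 of the 10 genes with WT-SOX9 (32% of all genes), 4 with dTA-SOX9 (41%), 3 without DOX (20.1%) and 1 with dHMG-SOX9 (29.3%). All MYC-tag peaks counted at *Sox9* (3 in the no DOX list, 3 for WT-SOX9, 2 for dTA-SOX9 and 4 for dHMG-SOX9) were on its coding exons, and in the dHMG-SOX9 list they were the only ones at the 10 loci. Off these exons the genes with a peak numbered 4 for WT-SOX9, 3 for dTA-SOX9, 2 in the no DOX list and 0 for dHMG-SOX9.

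The 13 WT-SOX9 peaks at *Sox6* had maxima of 1806 to 12312 RPKM, or 11 to 75 fragments. Of these 13 peaks, 6 lay on a SOX9 peak of the skin, 5 of them on SOX9 peaks of all of W1, W2, W6 and W12, counts given without a whole-list share. None of the 13 lay on a dTA-SOX9 peak (0 of 13, 95% CI up to 22.8%), an interval that holds the 19.2% of the whole list. Another form of SOX binding sequence, 2 words facing each other (ACAAA or ACAAT, a spacer of 3 to 5 bases, then ATTGT or TTTGT), stood in 4 of the 13 windows around a maximum. Of all 18 WT-SOX9 peaks at the loci off *Sox9*, 22.2% (95% CI 9.0 to 45.2) held this pair, against 3.69% of the whole list, and 44.4% (95% CI 24.6 to 66.3) held the SOX word, against 34.2%. The AP-1 word was in 0 of the 18 (95% CI up to 17.6%), against 7.15% of the whole list. All 4 pairs were at *Sox6*. The lower peaks with a pair, at 1806 and 1970 RPKM (11 and 12 fragments), stood near the 1800 RPKM limit and lay on 0 SOX9 peaks of the skin. In the SOX9 lists of the skin the pair was in 1 of 26, 1 of 24, 1 of 33 and 2 of 19 peaks at the loci from W1 to W12. The windows of the highest *Sox6* peaks with a pair, in capitals, were chosen after their values were seen and are these.
Sox6, 423.0 kb into the gene (chr7:115615700-115615800): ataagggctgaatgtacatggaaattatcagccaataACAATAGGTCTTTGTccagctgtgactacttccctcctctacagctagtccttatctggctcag
Sox6, 213.9 kb into the gene (chr7:115824894-115824994): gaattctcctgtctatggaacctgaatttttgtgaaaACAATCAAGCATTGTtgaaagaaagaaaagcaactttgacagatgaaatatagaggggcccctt
The first is the site that was highest at *Sox6* in skin at W1, and it stood at 12312 RPKM (75 fragments, 95% CI 59.0 to 94.0) in culture. The second, at an internal promoter of *Sox6*, stood at 5581 RPKM (34 fragments, 95% CI 23.5 to 47.5) and was in 0 of the SOX9 lists of the skin.

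With WT-SOX9, *Sox6* had 12 MLL3/4 peaks against 9 without DOX, and *Sox6* was the 1 gene of the 10 with more (4.23% of all genes had more). In each of the mutant lists it had 2. Of the 12 peaks, 9 had no counterpart without DOX. Of the 13 MYC-tag peaks at *Sox6*, 10 lay on MLL3/4 peaks of the same cells, and 9 of these 10 had no MLL3/4 peak beneath them without DOX. The count of 9 is given without a whole-list share for the same condition, so it cannot be told from the general pattern of WT-SOX9 peaks. The share on MLL3/4 peaks of the same cells, 76.9% (95% CI 49.7 to 91.8), had an interval that held the 56.6% of the whole MYC-tag list. The new MYC-tag peak of highest total signal, 172.5 kb into the gene at 10014 RPKM (61 fragments, 95% CI 46.7 to 78.4), and the new MLL3/4 peak of highest total signal, with a coverage of 15, were at the same place. In lists cut to 10543 peaks, *Sox6* had 2 MLL3/4 peaks without DOX and 12 with WT-SOX9, while the mutant lists held 0 (dTA-SOX9) and 1 (dHMG-SOX9).

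**Figure D5:**
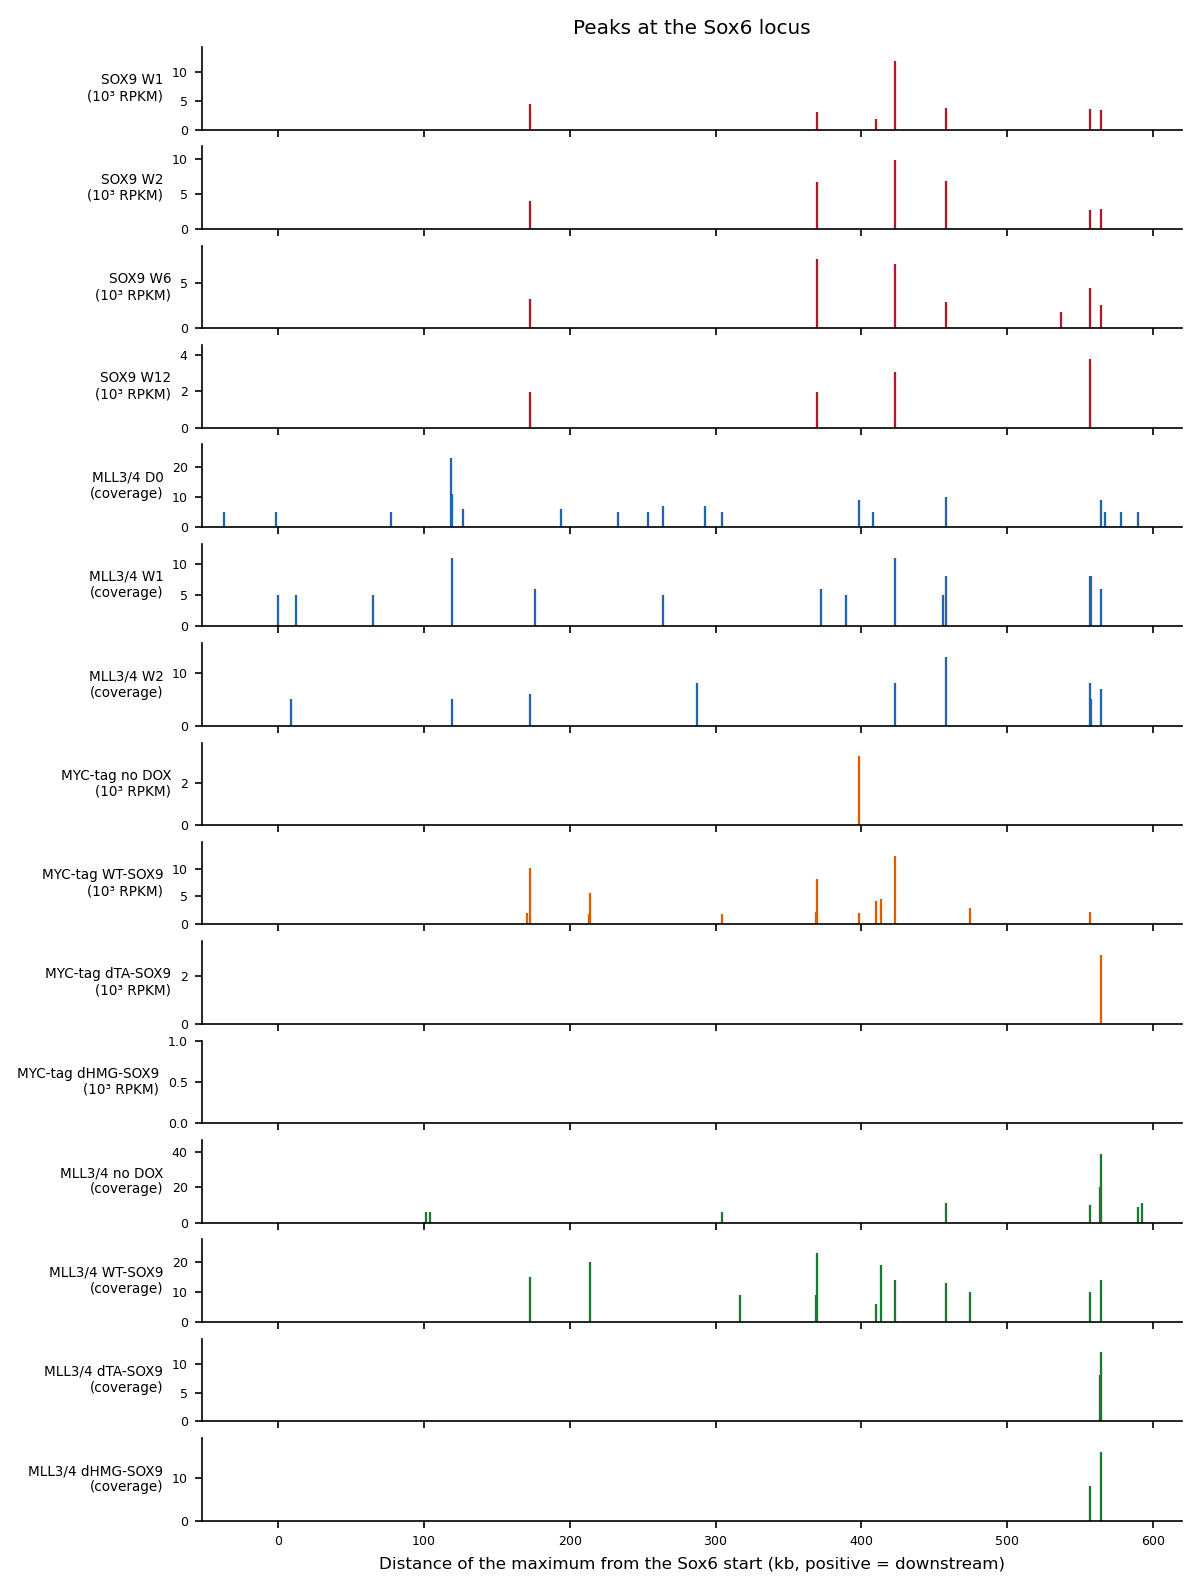
Peaks at the *Sox6* locus in 15 lists, by distance of the maximum from the *Sox6* start in kb; heights are in 1000 RPKM for SOX9 and MYC-tag lists and in raw coverage for MLL3/4, each with its own scale. Of the 13 MYC-tag peaks of WT-SOX9, 10 stand on MLL3/4 peaks of the same cells (76.9%, against 56.6% of the whole list, inside the 95% CI of 49.7 to 91.8), and the dTA-SOX9 and dHMG-SOX9 lists have 1 and 0 MYC-tag peaks.

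At the other genes MLL3/4 peaks were fewer with WT-SOX9 than without DOX at 6 of 10 genes (64.3% of all genes): *Sox5* had 2 against 10, *Sox7* 0 against 5, *Sox21* 0 against 3, *Sox4* 1 against 3, *Sox11* 1 against 3 and *Sox9*, on its coding exons, 0 against 3. In lists cut to 10543 peaks, 4 of these 6 did not differ: *Sox5* had 2 in both, *Sox4* and *Sox11* 1 in both and *Sox21* 0 in both, while *Sox7* had 0 against 1 and *Sox9* 0 against 3. The total at the 10 loci then turned from 16 against 36 to 16 against 10, with *Sox6* holding 12 of the 16 and the *Sox9* coding exons 3 of the 10. In the order no DOX, WT-SOX9, dTA-SOX9 and dHMG-SOX9, the MLL3/4 lists of 33975, 10543, 25948 and 23301 peaks held 36, 16, 22 and 23 peaks at the 10 loci, or 33, 16, 19 and 19 off the *Sox9* coding exons. These were at 7 genes (70.9% of all genes had a peak), 4 (42.4%), 8 (65.9%) and 6 (64.2%), and off the exons at 6, 4, 7 and 5. Of the 36, 11.1% (95% CI 4.41 to 25.3) overlapped a peak with WT-SOX9, against 18.0% of the whole list, 47.2% (95% CI 32.0 to 62.99) a peak with dTA-SOX9, against 55.7%, and 44.4% (95% CI 29.5 to 60.4) a peak with dHMG-SOX9, against 56.5%. All 3 whole-list values lay inside the intervals. Off the exons the shares were 12.1% (95% CI 4.82 to 27.3), 42.4% (95% CI 27.2 to 59.2) and 39.4% (95% CI 24.7 to 56.3), and the whole-list value for dHMG-SOX9 then lay just above its interval. In lists cut to 10543 peaks, 10 peaks without DOX were left at the loci, 3 of them on *Sox9* coding exons. Of the 10, 30% (95% CI 10.8 to 60.3) overlapped a peak with WT-SOX9, 60% (95% CI 31.3 to 83.2) one of the dTA-SOX9 list and 70% (95% CI 39.7 to 89.2) one of the dHMG-SOX9 list, against 41.7%, 66.6% and 72.9% of the whole cut list. Of the 16 peaks with WT-SOX9, 25% (95% CI 10.2 to 49.5) had a counterpart without DOX, against 58.2% of the whole list. In dTA-SOX9 and dHMG-SOX9 cells, 4 genes each had fewer peaks than without DOX (46% and 44.7% of all genes), *Sox5*, *Sox6* and *Sox21* in both, *Sox7* with dTA-SOX9 and *Sox4* with dHMG-SOX9, and *Sox11* had more in both. For the lists with dTA-SOX9, *Sox13* also had more (13.1% of all genes had more). For dHMG-SOX9, *Sox9*, on its coding exons, and *Sox7* had more (10.9%). In lists cut to 10543 peaks, *Sox11* and *Sox7* had 1 peak in the no DOX list and in each mutant list, and *Sox5* had 2 in the no DOX list and in the dTA-SOX9 list and 1 in the dHMG-SOX9 list. In the order no DOX, dTA-SOX9 and dHMG-SOX9, *Sox6* then had 2, 0 and 1, *Sox13* 0, 1 and 0, *Sox4* 1, 0 and 1, *Sox21* 0, 1 and 0 and *Sox9* 3, 3 and 2. The order thus turned at *Sox21* with dTA-SOX9 and at *Sox9* with dHMG-SOX9, and *Sox4* no longer differed with dHMG-SOX9.

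The titles of the samples behind the MLL3/4 list with WT-SOX9 name replicates 1 and 2, while their descriptions name replicate 2 for both, so the replicates behind it are unsure, and every value with that list carries this doubt. The list of WT-SOX9 without DOX from replicate 1 alone held 40 MLL3/4 peaks at the loci, at 7 genes (72.9% of all genes), against 36 in the pooled list, with *Sox6* at 7 against 9.

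The other 10 genes of the family in the annotation were examined by their counts. *Sox10*, the third gene of group E, had 4, 4, 5 and 4 SOX9 peaks from W1 to W12, and *Sox15* had 1 at D0 and 3, 5, 4 and 0 later in a stretch that 11 other protein-coding genes share. *Sox30* had 1 at W1, W2 and W6, *Sox12* had 1 at W2, W6 and W12, and *Sox1*, *Sox2*, *Sox3*, *Sox14*, *Sox17* and *Sry* had 0 in all 5 SOX9 lists. In total the 10 other genes held 1 SOX9 peak at D0 and 8, 11, 11 and 5 from W1 to W12.

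Across the 16 lists, *Sox6* had 106 peaks, the most of the 10 genes. The protein-coding genes over 1 Mb away whose log2(peaks + 1) resembled those of *Sox6* most were *Ndfip2* (Pearson r = 0.94 over 16 lists), *Agps* (r = 0.94) and *Dpy19l4* (r = 0.94), given as a description because the lists share samples and differ in depth.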

How the data were processed

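CNR was measured in 41 samples, of which 32 stood behind the 16 pooled lists used here and 9, with antibodies to JUN, ARID1a or BRG1, were left aside; 2 further lists were from replicate 1 alone. Per the labels and methods, the authors aligned reads with Bowtie2 2.2.9 to mm10, processed them with SAMtools 1.3.1 and Picard, kept short fragments, pooled replicates, made coverage with deepTools 3.1.2 and called peaks with SEACR. The maximum signal is in RPKM in the lists deposited for SOX9, for the MYC tag and for replicate 1, and the authors kept pooled peaks above 1800 RPKM. The deposited MLL3/4 signal is unscaled coverage, and the deposited total signal is summed over a peak. Fragments behind a peak are its maximum divided by the RPKM of 1 fragment, the largest step of which the maxima are whole multiples. The depths follow from that step, with each count taken as 1 fragment at 1 base.

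Peaks were read with Python 3.11.15, pandas 2.3.3, numpy 2.4.6, scipy 1.17.1, pysam 0.24.0 and matplotlib 3.10.9. Genes were GENCODE vM21 on GRCm38.p6 (mm10), coordinates count from 1, and mitochondrial peaks were left out. Peaks overlapping by 1 bp were shared, promoters reached 1 kb from a start, and the background is the share of all protein-coding genes meeting the same condition. Groups came from the labels. The members, gene lists and comparisons were chosen with earlier results of these data known. Named genes were the 10 members, and named sites were those in most SOX9 lists, then of highest total signal at W2. Counting steps were tested on simulated data. Alternatives were 10 kb flanks, nearest gene, the higher 50% of a list, lists of equal size, merging within 500 bp, replicate 1 alone, an overlap of 50%, windows of 100 bp, 500 kb around *Sox9* and, added after seeing the data, leaving out *Sox9* coding-exon peaks or *Sox5* and *Sox6*.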

Additional observations from a re-analysis of the deposited data

Results flagged for a closer look

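*Sox6* was the 1 gene of the 10 with fewer MLL3/4 peaks at both W1 and W2 than at D0 in skin and more with WT-SOX9 than without DOX in culture. *Sox21* went the other way at W1 alone, with 3 peaks at D0, 5 at W1 and 3 at W2 in skin and 3 without DOX and 0 with WT-SOX9 in culture. In skin *Sox6* had 19 peaks at D0, 14 at W1 and 9 at W2, while in culture it had 9 without DOX and 12 with WT-SOX9. Of all protein-coding genes, 1.05% had fewer peaks at both W1 and W2 than at D0 and more with WT-SOX9 than without DOX. With 1 pooled list per group the difference was not tested. In lists cut to equal size, *Sox21* had 0 peaks in both culture lists, and for *Sox6* the skin counts were 11, 12 and 9 and the culture counts were 2 and 12, so the order of D0 and W1 in skin turned.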

How the results depend on the processing

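No paired analysis was possible because each group has 1 pooled list. No value here has a test, so the alternatives show how far counts move, and the cause of a move was not tested beyond what each construction sets (shorter flanks and shorter lists hold fewer peaks). Of 247 values under alternatives, 150 stayed within 1.5 times or the interval and 97 moved.

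With 10 kb flanks, peaks at the 10 loci were 14 for SOX9 at W2, 32, 29 and 22 for MLL3/4 at D0, W1 and W2, and 21, 11 and 12 for MLL3/4 in the no DOX, dTA-SOX9 and dHMG-SOX9 lists. Genes with a peak were then 2, 4 and 3 for SOX9 at W2, W6 and W12 (37.2%, 37.2% and 20.6% of all genes with the same flanks), 5 and 4 for MLL3/4 at D0 and W1 (54.1% and 45.8%), and 4, 2 and 4 for MLL3/4 without DOX, with WT-SOX9 and with dTA-SOX9 (49.7%, 22.3% and 42.1%). With a peak given to its nearest gene only, MLL3/4 at D0 had 38 peaks.

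With the higher 50% of each list by total signal, peaks were 14, 12 and 11 for SOX9 at W1, W2 and W12, 27, 16 and 16 for MLL3/4 in skin, 3, 13 and 6 for the MYC tag without DOX, with WT-SOX9 and with dTA-SOX9, and 15, 10, 10 and 7 for MLL3/4 in culture. Genes with a peak were 3 and 4 for SOX9 at W1 and W6 (31.3% and 38.7% of all genes), 1 for the MYC tag without DOX (12.9%) and 2 for MLL3/4 with WT-SOX9 (26.3%).

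In lists of equal size within an antibody and system, peaks were 1, 0, 0 and 4 for SOX9 at W1, W2, W6 and W12, 12 and 5 for the MYC tag with WT-SOX9 and dTA-SOX9, and 10, 9 and 7 for MLL3/4 in the no DOX, dTA-SOX9 and dHMG-SOX9 lists. Genes with a peak were 1, 0, 0 and 1 for SOX9 from W1 to W12 (4.09%, 4.91%, 4.36% and 4.03% of all genes) and 3 for the MYC tag with WT-SOX9 (12.2%). The share of MLL3/4 peaks without DOX that overlapped one with WT-SOX9 was 30% (95% CI 10.8 to 60.3, n = 10, 41.7% of the whole cut list), and one with dHMG-SOX9 70% (95% CI 39.7 to 89.2, 72.9%). Sites in all 4 SOX9 lists were 5 in place of 11 when each list was cut to 9745 peaks, an alternative chosen after seeing the data.

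Replicate 1 alone gave 3 MYC-tag peaks without DOX above 1800 RPKM, the limit of the pooled list (5 peaks), and 12 at 4 genes with no limit, and its MLL3/4 list, with no limit, gave 40. Leaving out peaks on *Sox9* coding exons, chosen after seeing the data, left 2 MYC-tag peaks without DOX and 0 peaks at 0 genes for dHMG-SOX9. With windows of 100 bp to each side, the SOX word was in 50% of SOX9 peaks at W1 and 55.6% of dTA-SOX9 peaks, against 26.5% and 21.4% of the whole lists. Without *Sox5* and *Sox6*, chosen after seeing the data, the shares on MLL3/4 peaks of D0 were 71.4%, 77.8%, 54.5% and 0% for SOX9 at W1, W2, W6 and W12, and 60% of 5 WT-SOX9 MYC-tag peaks, 3 of them on *Sox9* exons, lay on MLL3/4 peaks without DOX. The SOX word was then in 0% of SOX9 peaks at W2 and 9.09% at W6, in 100% of 2 WT-SOX9 peaks and in 0% of 3 dTA-SOX9 peaks.

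Within 500 kb of either end of the *Sox9* gene, peaks were 28 and 10 for SOX9 at W6 and W12, 29 for MLL3/4 at D0, 12 and 5 for the MYC tag with dTA-SOX9 and dHMG-SOX9, and 39, 9, 29 and 27 for MLL3/4 in culture. Within 1 Mb, the higher 50% of each list held 1, 14, 21, 23 and 10 SOX9 peaks from D0 to W12, 28, 24 and 32 MLL3/4 peaks in skin, 3, 9 and 12 MYC-tag peaks without DOX, with WT-SOX9 and with dTA-SOX9, and 4, 28 and 23 MLL3/4 peaks with WT-SOX9, dTA-SOX9 and dHMG-SOX9. In lists of equal size these were 2, 3, 3 and 2 for SOX9 from W1 to W12, 9 and 8 for the MYC tag with WT-SOX9 and dTA-SOX9, and 31, 25 and 21 for MLL3/4 in the no DOX, dTA-SOX9 and dHMG-SOX9 lists.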
